A study of Rattus norvegicus with 36 samples.

Results

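The potassium channel genes of the rat brain were taken as all protein-coding genes whose symbol begins with Kcn. The 4 deposited regional tables held 92 such genes among 26142 genes in any table, and 88 of them were present in all 4 tables, which share 21121 genes. The rule used names and biotypes only and no measured value. By class, the 92 genes comprised 15 voltage-gated pore subunits (Kcna, Kcnb, Kcnc and Kcnd), 10 modifier subunits (Kcnf, Kcng, Kcns and Kcnv) and 16 auxiliary subunits (Kcnab, Kcnip, Kcne and Kcnmb). The others were 5 Kcnq channels, 8 Kcnh channels, 8 calcium- or sodium-gated channels (Kcnma, Kcnn, Kcnt and Kcnu), 15 inward rectifiers (Kcnj), 14 2-pore channels (Kcnk) and Kcnrg, which is no channel subunit and was left unclassed. Kcnu1 was placed by name in the calcium- or sodium-gated class, which does not describe its own gating. RNA was sequenced from rat brain tissue 6 weeks after a blast exposure or a sham exposure. The 36 libraries came from hippocampus (5 blast and 5 sham), amygdala (5 and 4), anterior cortex (3 and 5) and cerebellum (5 and 4). The labels used here do not state strain, sex, age or blast pressure. Library numbers below are those of the sample titles: blast libraries carry 1, 2, 5, 6 or 9 and sham libraries 10, 12, 13, 16 or 18, and values are listed in that order.

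Potassium channels let potassium ions leave or enter cells down their gradient, which sets the resting potential of neurons and glia and ends each action potential. Voltage-gated pore subunits assemble in fours, modifier subunits form no working channel alone but join a pore subunit, and auxiliary subunits alter trafficking and gating. Inward rectifiers and 2-pore channels carry current near rest. The Kcnma, Kcnn and Kcnt channels, gated by calcium or sodium, open after spikes have loaded the cell with those ions.

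The library totals ran from 15426786 to 23460322 counts, and levels are given as CPM, the counts of a gene scaled to a common library total. Of the 88 genes in all tables, 62 were above 1 CPM on average in the sham libraries of every region and 10 stayed under 1 CPM in each. Region labels were checked on other genes: the summed level of the dentate granule cell markers Prox1 and Dsp was 126 to 202.8 CPM in sham hippocampus, and that of the cerebellar granule cell markers 3836 to 4051 CPM in sham cerebellum. The highest values of those sums in the sham libraries of the other regions were 60.6 CPM for the dentate markers and 67.7 CPM for the cerebellar ones. Several libraries stood apart. Among them is hippocampus blast 6, whose title carries the added letters re, which the labels do not explain. Hippocampus blast 6 and blast 2 and amygdala blast 9 were rich in choroid plexus transcripts, at 8981, 2837 and 2050.3 summed CPM of 11 markers. In cerebellum, where all 12 markers were in the table, that sum was 3009 CPM in sham 13 and 2086 CPM in blast 5. Oligodendrocyte markers summed to 22693 CPM in hippocampus blast 6, against 6812 to 9634 CPM in the other hippocampal libraries, and to 6807 CPM in amygdala blast 6, against 3058 to 4315 CPM in the other amygdala libraries. In bulk tissue, fewer cells of a type and less RNA per cell cannot be told apart, and region cannot be told apart from any step, such as dissection or library preparation, that differed between regions. Whether the numbers are separate animals is not stated, so p-values measure the spread between these libraries, which may be technical.

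In sham tissue the most abundant transcripts of the family differed between forebrain and cerebellum. To compare genes with each other, CPM was divided by the deposited gene length in kilobases. Kcnab2, a beta subunit of voltage-gated channels, was highest in the 3 forebrain regions, at 238 ± 11.4 CPM per kb in hippocampus (SD, n = 5), 105 ± 8.22 in amygdala (SD, n = 4) and 139 ± 8.82 in anterior cortex (SD, n = 5). Its hippocampal level was 18.4% of the summed per-length level of all the potassium channel genes there. Kcnc1, a fast voltage-gated channel gene known for supporting high firing rates, stood at 232 ± 15.3 CPM per kb in cerebellum (SD, n = 4), which is 12.7% of the family's sum there.

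Further genes with high levels per length in sham hippocampus were Kcnab1, Kcnmb4, Kcnj9, Kcnj3 and Kcng2, from 46.3 down to 37.6 CPM per kb. In amygdala Kcnip3, a calcium-binding partner of Kcnd channels, stood at 53.6 CPM per kb, and Kcnmb4, Kcnh3, Kcnc4, Kcnj9 and Kcnab1 followed between 38.2 and 32.7. In anterior cortex Kcnmb4, the neuronal beta subunit of large-conductance calcium-gated channels, stood at 68.2 ± 8.57 CPM per kb and Kcnj10, the main inward rectifier of astrocytes, at 64.3 ± 8.91. Kcnh3, Kcnip3, Kcnk4 and Kcnj4 ranged there from 56.5 to 36.8 CPM per kb. In cerebellum the sodium-gated channel gene Kcnt1 at 108, the 2-pore channel gene Kcnk1 at 79.6 and Kcnip4 at 75.2 CPM per kb were below Kcnc1, with Kcng4 at 56 and Kcnj12 at 54.1.

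Summed over the family, the per-length level in sham tissue was 1292 ± 56.7 CPM per kb in hippocampus, 1108 ± 56.8 in amygdala, 1826 ± 83.1 in cerebellum and 1182 ± 88.9 in anterior cortex (SD). Every cerebellar sham library lay above every sham library of the other regions. Voltage-gated pore subunits made up 40.1% ± 0.996 (SD) of that sum in cerebellum, against 19.6% ± 0.568 in hippocampus, 20.2% ± 0.715 in amygdala and 16.6% ± 0.404 in anterior cortex. The share of auxiliary subunits went the other way, from 31.4% ± 1.6 in hippocampus to 16.4% ± 0.743 in cerebellum. Kcnq channels held 11.2% ± 1.13 in hippocampus and 3.28% ± 0.273 in cerebellum. Kcnh channels had their largest share in anterior cortex, at 8.29% ± 0.298, and their smallest in hippocampus, at 4.55% ± 0.295. The share of 2-pore channels was 5.56% ± 0.259 in hippocampus and 11% ± 0.335 in cerebellum. These shares depend on the deposited gene lengths, since the authors' FPKM values imply a shorter length for some of the genes, by up to 2.91 times for Kcnq1 and 2.83 times for Kcna2.

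**Figure D1:**
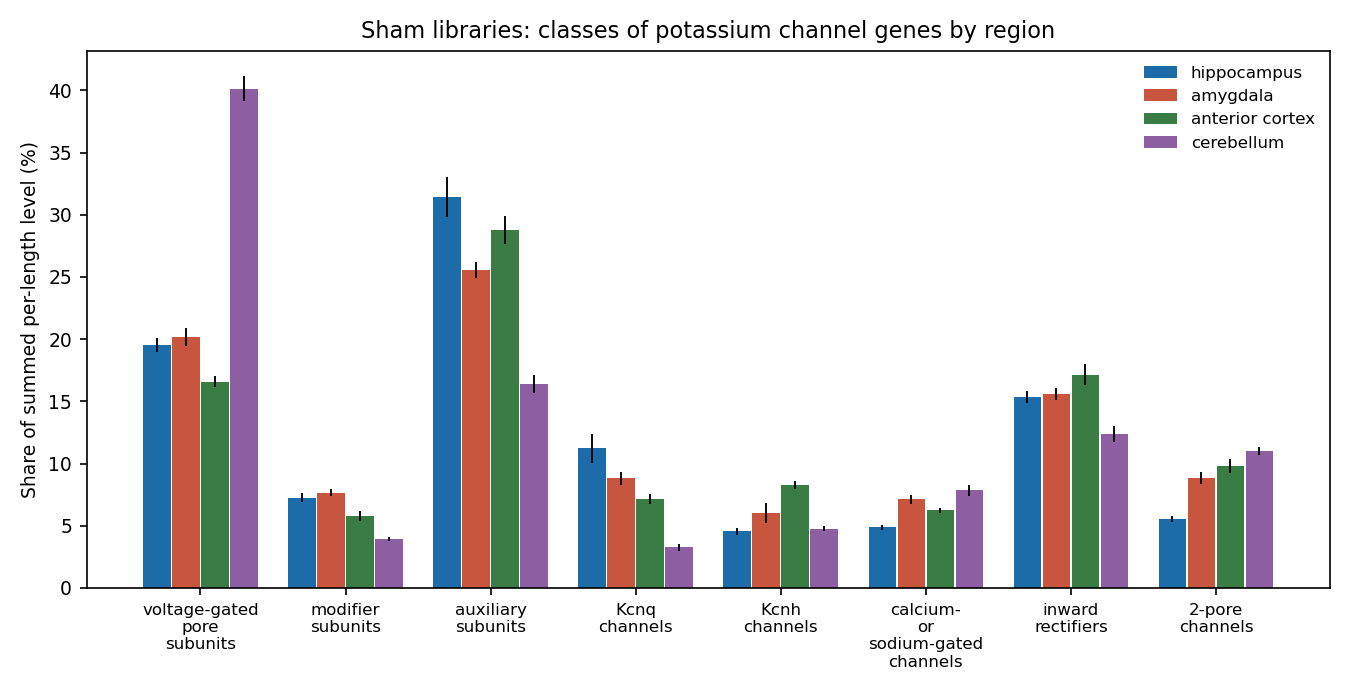
Share of each class in the summed per-length level of the potassium channel genes in sham tissue, in percent, by region. Bars are means and error bars SD over 4 or 5 sham libraries. Voltage-gated pore subunits reach 40.1% in cerebellum, and auxiliary subunits 31.4% in hippocampus.

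The sham libraries of each pair of regions were then compared, which asks how the channel repertoire differs between regions without blast. Of the 92 genes, 80 passed the filter on low counts in the sham fit and 12 did not. Between hippocampus and cerebellum 69 of the 80 (86.2%) passed an adjusted p under 0.05, against a background of 62.8% of all 16381 genes tested, with 41 higher in hippocampus and 28 higher in cerebellum. The other comparisons with cerebellum called 64 genes for amygdala (80.0%, background 64.7%) and 65 for anterior cortex (81.2%, background 68.7%). Among forebrain regions, 65 genes differed between hippocampus and anterior cortex (81.2%, background 51.0%), 42 between hippocampus and amygdala (52.5%, background 33.2%) and 41 between amygdala and anterior cortex (51.2%, background 31.5%). In each of the 6 comparisons the share of potassium channel genes called was above the background. The differences were also larger: the median absolute log2 difference was 1.49 for the family and 0.48 for all genes between hippocampus and cerebellum, and 0.47 and 0.23 between hippocampus and amygdala. Among the 80, Kcnf1, Kcng3, Kcnh8, Kcnj4, Kcnk5, Kcnk13, Kcnk16, Kcns1 and Kcnt2 did not pass the count filter within cerebellum. They entered the fit through forebrain libraries, so the shares and differences against cerebellum were in part set by the filter. How many background genes entered this way was not counted, so the excess against cerebellum is not read as a result about the family. The 6 comparisons share the same sham libraries and are not independent of each other.

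A gene was taken as marked in a region where it passed the threshold in the same direction against all 3 other regions. By this rule cerebellum had 19 of the 80 genes higher (23.8%, background 22.9%) and 30 lower (37.5%, background 22.2%). Hippocampus had 14 higher (17.5%, background 6.89%) and 9 lower (11.2%, background 5.17%), and anterior cortex 12 higher (15%, background 7.81%) and 5 lower (6.25%, background 5.63%). Amygdala had 2 higher (2.5%, background 2.44%) and 3 lower (3.75%, background 2.29%). For higher genes in cerebellum, for both directions in amygdala and for lower genes in anterior cortex the share was near the background, so those counts are no result about the family. Of the genes lower in cerebellum, Kcnj4, Kcnt2, Kcnf1, Kcng3, Kcns1, Kcnk13 and Kcnk16 did not pass the count filter within cerebellum. They entered the fit through forebrain libraries, so being lower there was in part set by the filter. How many background genes entered this way was not counted, so that count is not read as a result about the family either. In all, 64 of the 80 genes were marked in at least 1 region (80%, background 60.1%), and 15 were called in all 6 comparisons (18.8%, background 5.35%). The 64 include the genes lower in cerebellum that entered the fit through forebrain libraries, so that count was in part set by the filter.

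Kcnc1 was higher in cerebellum than in each other region. The gene, on chromosome 1 plus strand from 102414625 to 102456411 in the unnamed build of the deposited tables, gave 999.7, 855, 931 and 899.7 CPM in the 4 cerebellar sham libraries. Its values elsewhere were 115, 98.4, 102, 109 and 97.2 in hippocampus, 105, 109, 105 and 102 in amygdala and 72.4, 90.9, 93.4, 108 and 97.9 in anterior cortex. The 3 forebrain regions overlapped in Kcnc1 and cerebellum was apart, by a smallest log2 difference of 3.01 (SE 0.081) with an adjusted p of 1.13e-16 at most by edgeR. Other voltage-gated pore subunits higher in cerebellum were Kcna2, Kcna1 and Kcnd3, by smallest log2 differences of 0.98, 0.37 and 0.22. The call of Kcna1 against hippocampus was lost without cerebellum sham 10, at 0.29 with an adjusted p of 0.0838. It was also lost without hippocampus sham 12 and cerebellum sham 13, left out as standing apart, at 0.29 with an adjusted p of 0.0548. That of Kcnd3 against amygdala was lost with the number as a block, at 0.19 with an adjusted p of 0.052, and without amygdala sham 12 or 16, at adjusted p of 0.0834 and 0.0589.

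Further genes well above the other regions in cerebellum came from several classes. Kcnj12, a strong inward rectifier, gave 139.7, 119, 121 and 119 CPM in cerebellum and 7.62 to 16.1 CPM in the sham libraries of the other regions, a smallest log2 difference of 3.01 (SE 0.095). Kcng4, a modifier subunit, gave 245, 205, 239.8 and 220.5 CPM in cerebellum, 23.1 to 31.7 in hippocampus, 13.2 to 19 in amygdala and 14.8 to 25.3 in anterior cortex. It was one of 2 modifier subunits called higher in cerebellum than in hippocampus, while 7 of the 9 tested were called lower, against backgrounds of 31.4% for higher and 31.4% for lower genes. Of the lower ones, Kcnf1, Kcng3 and Kcns1 did not pass the count filter within cerebellum. The acid-sensitive 2-pore channel gene Kcnk3 gave 148, 129, 132 and 126 CPM in cerebellum. Its levels elsewhere were 20.2, 19.7, 21.5, 20.1 and 19.1 in anterior cortex, 14.3, 9.61, 12.6 and 14.6 in amygdala and 5.24, 4.88, 5.11, 3.51 and 8.23 in hippocampus, with no overlap between any of the 4. Its close relative Kcnk9 and Kcnk12 were higher too, by smallest log2 differences of 0.73 and 2.20, as were Kcnk10 and Kcnk1, by 1.92 and 1.51. Kcnt1, a sodium-gated channel gene, gave 618, 595, 689.6 and 631 CPM in cerebellum, 167, 171, 166, 190.4 and 189 in anterior cortex, 188, 148, 161 and 207 in amygdala and 37.1, 41.4, 44.1, 43 and 56.5 in hippocampus. Cerebellum was highest and hippocampus lowest for this gene, with anterior cortex and amygdala overlapping between them. Kcne2 also passed, by 1.59, but its level moved with the choroid plexus markers described below.

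Transcripts nearly missing from cerebellum belonged to several classes as well. Kcnj4, an inward rectifier of forebrain neurons on chromosome 7 minus strand from 120717375 to 120744602, gave 0.0543, 0.371, 0 and 0.287 CPM in cerebellum. It gave 79.1, 75.6, 77, 73.2 and 71.6 CPM in hippocampus, 92, 82.7, 85.6 and 75.3 in amygdala and 82.9, 104, 74.5, 134 and 93.6 in anterior cortex, and the smallest log2 difference was -8.78 (SE 0.267). Its relative Kcnj12 had the opposite order, high in cerebellum and low in forebrain. Kcnt2, the second sodium-gated channel gene, on chromosome 13 plus strand from 57131395 to 57521836, gave 0.0543, 0.265, 0.116 and 0.0574 CPM in cerebellum. The same gene gave 82.4, 65.2, 70.6, 85.9 and 65.6 CPM in hippocampus, 38.9, 46.2, 38.1 and 31 in amygdala and 32.3, 31.8, 31.2, 36.4 and 29.4 in anterior cortex, the reverse of the order of Kcnt1. The smallest log2 difference of Kcnt2 between cerebellum and another region was -8.16, read from a few cerebellar counts per library.

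The modifier Kcnf1 gave 0.108, 0.635, 0 and 0.115 CPM in cerebellum, 6.05, 5.63, 11.3, 6.42 and 7.52 in hippocampus, 48.8, 56.2, 52.5, 76 and 55.1 in anterior cortex and 68.1, 68.1, 64.8 and 59.1 in amygdala. Hippocampus held the middle place, clear of both sides. The M-current subunit gene Kcnq5 gave 4.88, 5.83, 2.85 and 3.39 CPM in cerebellum and 103 to 224 elsewhere, a smallest log2 difference of -5.02 (SE 0.168). Its relative Kcnq3 was lower at -2.34, and Kcna4, which carries a rapidly inactivating current, at -3.48. Kcnab2, on chromosome 5 minus strand from 169572517 to 169658875, gave 106, 97.8, 106 and 98.7 CPM in cerebellum and 510.0, 472, 453, 458 and 467 CPM in hippocampus. Amygdala and anterior cortex lay between, and the smallest log2 difference of cerebellum for Kcnab2 was -1.09. It overlaps LOC500594 on the opposite strand, and the labels and headers do not state whether counting used strand, so its level is uncertain by what that gene contributes.

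**Figure D2:**
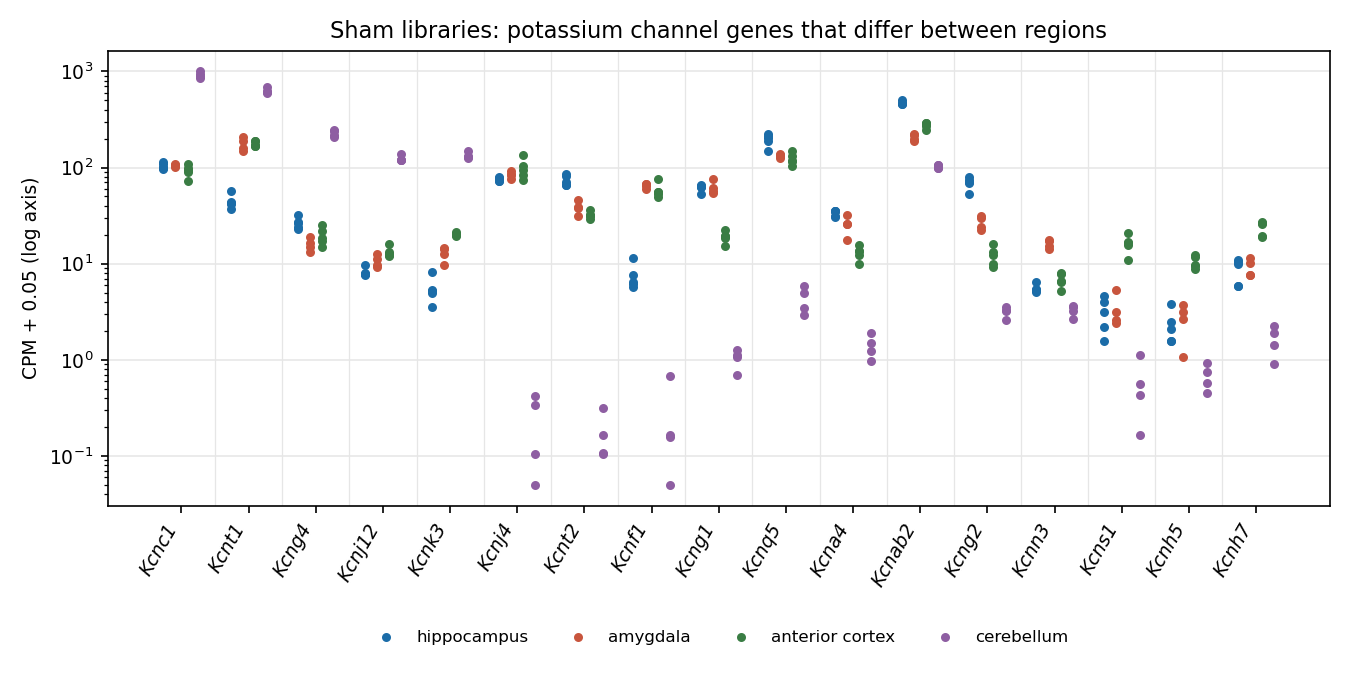
Sham level of 17 potassium channel genes in each region, in CPM plus 0.05 on a log axis, with 1 point for each sham library. Kcnc1 and Kcnj12 are highest in cerebellum, and Kcnj4, Kcnt2, Kcnf1 and Kcnq5 are lowest there.

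Promoter sequence is shown for the first pair of genes higher and the first pair lower in cerebellum that have a single entry, since these are the genes the regional contrast turns on. The sequences are the 250 bases before the gene's start from RefSeq on build GRCr8, in which 62 of the 92 genes were matched by symbol. Capitals mark matches on either strand to CANNTG, the E-box to which bHLH factors bind, and to GGGCGG, the GC box of Sp-type factors.
Kcnc1 (chr1:106038997-106039246, plus strand): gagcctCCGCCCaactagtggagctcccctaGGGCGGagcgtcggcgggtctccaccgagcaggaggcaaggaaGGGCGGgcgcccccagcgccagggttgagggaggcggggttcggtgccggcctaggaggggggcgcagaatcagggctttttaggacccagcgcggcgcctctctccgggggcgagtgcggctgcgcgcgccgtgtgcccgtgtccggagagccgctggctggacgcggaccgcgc
Kcng4 (chr19:64597889-64598138, minus strand): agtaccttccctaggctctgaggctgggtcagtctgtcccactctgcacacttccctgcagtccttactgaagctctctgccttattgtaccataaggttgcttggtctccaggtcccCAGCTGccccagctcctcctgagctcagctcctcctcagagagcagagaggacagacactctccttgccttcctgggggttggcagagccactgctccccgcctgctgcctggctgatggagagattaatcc
Kcnj4 (chr7:112954548-112954797, minus strand): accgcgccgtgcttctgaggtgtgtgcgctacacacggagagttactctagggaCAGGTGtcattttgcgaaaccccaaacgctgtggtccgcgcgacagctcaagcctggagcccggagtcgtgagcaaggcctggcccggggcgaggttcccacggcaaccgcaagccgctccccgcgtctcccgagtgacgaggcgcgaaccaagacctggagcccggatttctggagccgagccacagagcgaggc
Kcnt2 (chr13:54215057-54215306, plus strand): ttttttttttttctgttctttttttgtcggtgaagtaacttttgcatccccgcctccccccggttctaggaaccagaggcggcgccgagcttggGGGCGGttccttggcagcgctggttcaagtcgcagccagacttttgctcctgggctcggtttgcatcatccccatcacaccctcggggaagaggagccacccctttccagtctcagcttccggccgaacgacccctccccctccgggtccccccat
The Kcnc1 window held 3 GC boxes and a GC content of 74.4%, and the Kcnt2 window 1 GC box and 59.2%. The Kcng4 and Kcnj4 windows each held 1 E-box, with GC contents of 58.4% and 65.6%. Of the family's 62 genes with a promoter, 38 held CANNTG and 31 held GGGCGG in at least 1 entry. Of all 33465 promoter entries, 65.5% and 30.5% did. Only 56 of the 62 genes had a single entry, so counts by gene and by entry are not strictly alike. Neither motif went with one direction: among the marked genes with a promoter, CANNTG was in 5 of 7 genes higher and 16 of 24 lower in cerebellum, and GGGCGG in 4 of 7 and 12 of 24. The TATA box letters TATAAA, on either strand, were in 2 of the 62 genes and in 12.9% of all entries. The cAMP response element TGACGTCA was in 0 of the 62 genes and in 1.59% of all entries. A match is a run of letters and not a measured binding site.

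Genes marked as higher in hippocampus came from several classes. Kcng2, a modifier subunit, gave 68.7, 80.2, 73.6, 70.2 and 52.8 CPM in hippocampus, 30.9, 29.6, 24.1 and 22.2 in amygdala, 3.47, 2.54, 3.19 and 3.21 in cerebellum and 9.28, 12.1, 13.2, 16.1 and 9.91 in anterior cortex. The 4 regions did not overlap, and the smallest log2 difference of hippocampus was 1.44 (SE 0.138). Kcnj6, a channel opened by G proteins, gave 85.3, 51.9, 77.3, 84.5 and 78.3 CPM in hippocampus, 37.9 to 49.3 in cerebellum, 26.9 to 35.8 in amygdala and 18.6 to 24.9 in anterior cortex. The lowest hippocampal value, of sham 12, was still above all values elsewhere. Kcnt2 was higher in hippocampus by at least 1.01, Kcnh8 by 1.76 and the modifier Kcns2 by 0.80 on the log2 scale. Without hippocampus sham 10 or anterior cortex sham 12, Kcnh8 no longer passed between those regions, with log2 differences of 1.4 and 1.52 and adjusted p of 0.077 and 0.0509. Against amygdala the Kcnh8 call was lost with the number as a block, at 1.44 with an adjusted p of 0.0647, and without hippocampus sham 10 or amygdala sham 12, 13 or 16, with adjusted p from 0.0643 to 0.0857. With the choroid plexus covariate it was lost against cerebellum, at 2.02 with an adjusted p of 0.0695. Of the 5 Kcnq genes tested, 4 were called higher in hippocampus than in each of the other regions (background 6.89%). The count was 3 with the number as a block, where Kcnq3 missed against anterior cortex at 0.40 with an adjusted p of 0.0593. That call of Kcnq3 was also lost in a fit of the 2 regions alone, and without any 1 of hippocampus sham 10, 13, 16 or 18 or anterior cortex sham 10, 13 or 18, with adjusted p from 0.0579 to 0.0887. Kcnip2 headed the list at 3.20, but this value rests on sham 16, whose level of 43.6 CPM compares with 1.81 to 3.33 CPM in the other hippocampal sham libraries. Without it the log2 difference from amygdala was 1.15 with an adjusted p of 0.11.

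The genes lower in hippocampus than in all other regions were led by Kcnt1, at -1.92. The acid-sensitive pair Kcnk3 and Kcnk9 followed at -1.19 and -1.16. Kcnip1, a Kcnd partner, was lower with a smallest log2 difference of -0.72, though its locus overlaps Kcnmb1. Of the 11 2-pore channel genes tested, 6 were called lower in hippocampus than in amygdala (background 16.7%). Against anterior cortex 7 were lower (background 26.3%) and 3 higher (background 24.7%).

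Genes marked as higher in anterior cortex came from several classes as well. Kcns1, a modifier, gave 10.8, 15.7, 16.8, 16.3 and 20.6 CPM in anterior cortex, 2.36 to 5.29 in amygdala, 1.53 to 4.6 in hippocampus and 0.116 to 1.06 in cerebellum. Its smallest log2 difference was 2.44 (SE 0.342), without overlap. Kcnh5, an ether-a-go-go channel gene, gave 8.69, 11.8, 9.74, 9.42 and 12.4 CPM there, with a smallest log2 difference of 2.16. Kcnh7, of the related Erg group, gave 18.7, 26.7, 19.3, 27.3 and 26 CPM and a smallest log2 difference of 1.54. With Kcnh4 at 0.54 and Kcnh3 at 0.48, 4 of the 8 Kcnh genes were marked as higher in anterior cortex (background 7.81%), and 6 were called higher there than in amygdala (background 16.2%). With the choroid plexus markers fitted as a covariate, Kcnh3 missed the threshold against cerebellum, at 0.31 with an adjusted p of 0.154. The 2-pore channel gene Kcnk4, which encodes a channel opened by membrane stretch, was higher by 0.72 and Kcnmb4 by 0.87. Kcnj10 gave 84.1, 100.4, 98, 72.5 and 102 CPM in anterior cortex and 42.2 to 59.8 CPM elsewhere. The groups did not overlap, with a smallest log2 difference of 0.88 (SE 0.103). The summed astrocyte markers ran from 3205 to 3971 CPM in anterior cortex, 3181 to 3461 in hippocampus, 3439 to 3855 in amygdala and 3221 to 3482 in cerebellum, which overlapped, and their part in the Kcnj10 difference was not tested. Lower than in the other regions were Kcnk10 at -0.78, Kcnab1 at -0.73, Kcnj6 at -0.34 and Kcnd3 at -0.31. The call of Kcnj6 against amygdala was lost on leaving out amygdala sham 12, 13 or 16 or anterior cortex sham 10 or 13, with adjusted p from 0.0817 to 0.133 and a log2 difference, amygdala minus anterior cortex, from 0.29 to 0.34.

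The 2 genes marked as higher in amygdala were Kcnn3 and Kcnj16. Kcnn3, a small-conductance calcium-gated channel gene, gave 17.7, 15.2, 17 and 14.1 CPM in amygdala, 3.53, 3.55, 2.61 and 3.16 in cerebellum, 5.37, 5.02, 5.31, 6.36 and 5.25 in hippocampus and 6.37, 6.56, 5.16, 7.67 and 8.02 in anterior cortex. Amygdala was apart from all others, with a smallest log2 difference of 1.08 (SE 0.131). Kcnj16, which joins Kcnj10 in glial channels, gave 29.1, 19.5, 28.3 and 29.2 CPM in amygdala and 20.2, 15.1, 18.6 and 22.7 in cerebellum, which overlapped. It gave 5.25 to 13.3 CPM in hippocampus and anterior cortex. The smallest log2 difference of Kcnj16 was 0.53 (SE 0.194), and the call against cerebellum was lost without amygdala sham 18 or cerebellum sham 13, with log2 differences of 0.47 and 0.41 and adjusted p of 0.0618 and 0.0816. Lower in amygdala, by smallest log2 difference, were Kcnh1 at -0.50, Kcng4 at -0.48 and Kcnj11, the pore of ATP-sensitive channels, at -0.47. Without amygdala sham 12, Kcng4 no longer passed against anterior cortex, at -0.40 with an adjusted p of 0.0621.

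Of the 80 genes, 3 had no called difference between regions (3.75%, background 13.6%). Kcnma1, the pore of large-conductance calcium-gated channels, passed in none of the 6 sham comparisons by edgeR (smallest unadjusted p 0.328), with mean levels of 78.8 ± 13.1 CPM in hippocampus, 81 ± 4.12 in amygdala, 91.1 ± 8.9 in cerebellum and 71.5 ± 12.3 in anterior cortex (SD). Kcnq1 and Kcnrg were the only other genes of the 80 tested without a call. While the pore gene Kcnma1 missed the threshold throughout, its beta subunit gene Kcnmb4 was lower in cerebellum with a smallest log2 difference of -1.38, and Kcnmb2 with one of -0.96. With the choroid plexus covariate Kcnmb2 missed against anterior cortex, at -0.95 with an adjusted p of 0.0507.

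The genes of the family are spread over 18 chromosomes, with 10 neighbouring pairs within 200000 bases of each other. Neighbours differed in regional order in the 3 pairs given next, while the neighbours Kcnk16 and Kcnk5 both ran from hippocampus over amygdala and anterior cortex down to cerebellum in mean sham level. Kcna1 was marked as higher in cerebellum and its chromosome 4 neighbour Kcna5 as lower. On chromosome 2, Kcna2 was higher in cerebellum and its neighbour Kcna3 lower, by smallest log2 differences of 0.98 and -1.59. Kcnj10 was marked in anterior cortex while Kcnj9, 12805 bases away on chromosome 13, was not marked there. In all, 16 genes overlap another gene of the tables and 8 of these a protein-coding one, namely Kcna3, Kcnab2, Kcnh3, Kcnip1, Kcnj13, Kcnk9, Kcnmb1 and Kcnmb4. The labels and headers do not state how reads of overlapping or similar genes were counted, so the values of these 8 are uncertain to that degree.

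The comparison the study was built on, blast against sham in each region 6 weeks later, called no potassium channel gene by edgeR. In hippocampus 78 of the 92 genes passed the filter on low counts and 0 passed an adjusted p under 0.05 (background 0%), with 3 at an unadjusted p under 0.05 (background 5.24%). In amygdala 0 of 80 passed (background 0%) and 5 had an unadjusted p under 0.05 (background 5.22%). In anterior cortex the counts were 0 of 83 (background 0.00634%) and 2 (background 5.82%), and in cerebellum 0 of 71 (background 0%) and 6 (background 6.82%). Fitted over all regions by limma, 0 of 83 passed (background 0.0584%), with 5 at an unadjusted p under 0.05 (background 8.62%). The test of whether the blast difference differed between regions called 0 of 83 by edgeR (background 0.0117%), with 5 at an unadjusted p under 0.05 (background 5.36%). DESeq2 called 0 genes of the family in hippocampus, amygdala and anterior cortex and 2 in cerebellum. The share of all genes that DESeq2 called is not given here, so the 2 are no result about the family. The smallest adjusted p of a potassium channel gene was 0.816 in hippocampus, 0.901 in amygdala, 0.842 in anterior cortex, 0.509 in cerebellum by edgeR and 0.15 over all regions by limma. A p that misses the threshold does not show that levels were equal. Kcnk7, Kcnk18, Kcnmb3, Kcnu1 and Kcnv2 passed the filter on low counts in no region. Kcnf1, Kcng3, Kcnh8, Kcnj4, Kcnk5, Kcnk13, Kcnk16, Kcns1 and Kcnt2 passed in all 3 forebrain regions and not in cerebellum. Kcna10, Kcne1, Kcnj1 and Kcnk6, each listed in some of the tables only, passed in none.

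The family's median log2 difference, blast minus sham, was -0.059 in hippocampus, 0.053 in amygdala, 0.00052 in cerebellum and -0.038 in anterior cortex. The medians over all genes tested lay between -3.5e-05 in cerebellum and 0.0033 in amygdala. In hippocampus 29 of 78 genes had a positive difference, in amygdala 50 of 80, in anterior cortex 30 of 83 and in cerebellum 36 of 71. Of the 69 genes tested in all 4 regions, 2 had a positive difference in every region and 5 in 0 regions, with 27 positive in exactly 2. Groups of blast and sham libraries that did not overlap were found for 1 gene in hippocampus (1.28%, background 0.847%), 2 in amygdala (2.5%, background 1.6%), 1 in anterior cortex (1.2%, background 3.84%) and 3 in cerebellum (4.23%, background 2.4%). Summed per length over the family, blast tissue gave 1255 ± 87.2 CPM per kb in hippocampus, 1167 ± 117 in amygdala, 1824 ± 65.9 in cerebellum and 1159.8 ± 87.2 in anterior cortex (SD), and in each region the blast and sham libraries overlapped. Of the voltage-gated pore subunits, 2 of 13 in hippocampus, 7 of 13 in amygdala, 5 of 13 in cerebellum and 6 of 14 in anterior cortex had a positive difference. Of the Kcnh channels, 1 of 8 in hippocampus, 7 of 8 in amygdala, 7 of 7 in cerebellum and 2 of 8 in anterior cortex had a positive one. None of these passed the threshold by edgeR, and over all genes tested 50% to 51% of the differences were positive.

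**Figure D3:**
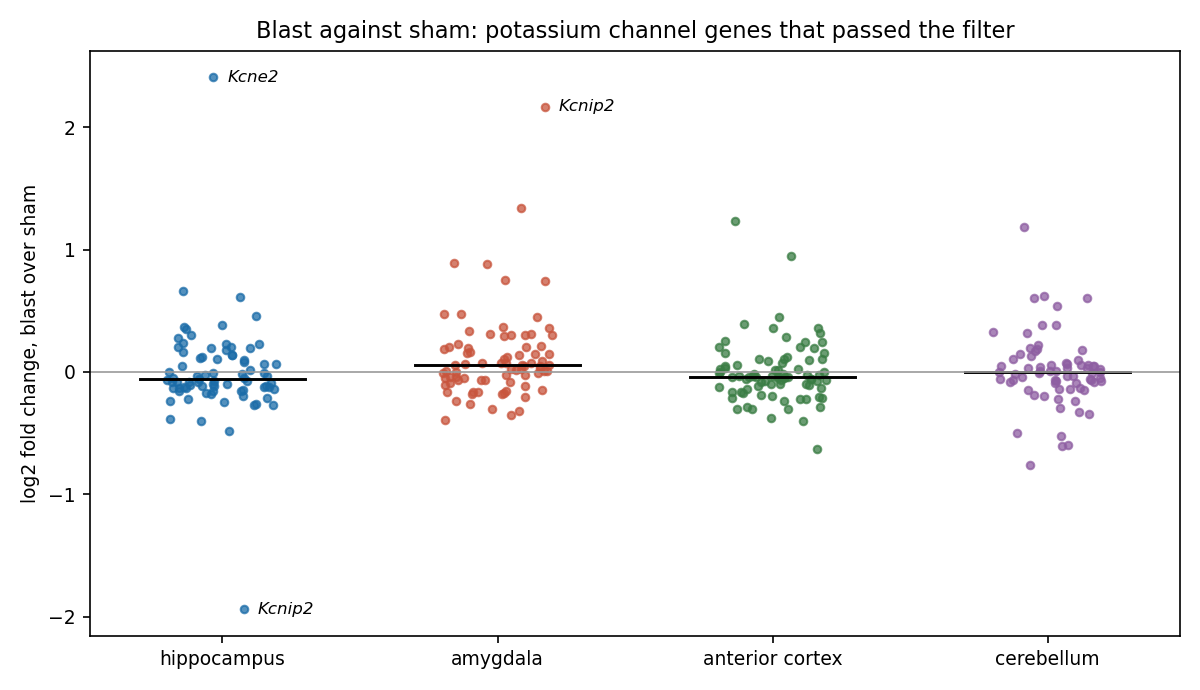
Log2 difference between blast and sham for each potassium channel gene tested, by region, with the median as a line. Medians lie at -0.059 in hippocampus and 0.00052 in cerebellum, and the labelled points far from 0 are Kcne2 and Kcnip2, each carried by 1 or 2 libraries.

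Among the genes nearest the threshold in cerebellum was the pore subunit Kcnd3. Kcnd3, which carries a rapidly inactivating current of granule cells and interneurons, gave 232, 214, 220.3, 162 and 203.2 CPM in the 5 blast libraries and 161, 169, 167 and 134 CPM in the 4 sham libraries. The lowest blast library, number 6, lay among the sham values and the other 4 blast libraries above them. The log2 difference of Kcnd3 was 0.38 (SE 0.097), with an adjusted p of 0.531 by edgeR and 0.0335 by DESeq2. In cerebellum the authors' deposited table gives Kcnd3 a log2 change of 0.27 with an adjusted p of 0.0306. The call of Kcnd3 therefore depended on the method. Without the choroid-rich libraries blast 5 and sham 13, edgeR gave a log2 difference of 0.39.

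Elsewhere the differences of Kcnd3 were smaller in size. The gene had log2 differences of -0.16 in hippocampus, -0.16 in amygdala and 0.016 in anterior cortex, and the test of a difference between regions did not pass, with an adjusted p of 0.677. Also in cerebellum, the fast channel gene Kcnc2 gave 48.1, 47.7, 46.4, 42.7 and 45.3 CPM in blast and 54.3, 51.6, 48.3 and 54.6 in sham, a log2 difference of -0.19 (SE 0.055) whose groups did not overlap. The groups of Kcnh4 did not overlap there either, at 3.87 to 4.76 CPM in blast and 2.7 to 3.71 CPM in sham. Kcnk9 had a log2 difference of 0.19, Kcne3 of 1.18, Kcnrg of -0.50, Kcng4 of -0.14 and Kcnc4 of -0.14. All of these missed the threshold with an adjusted p of at least 0.59 by edgeR.

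Kcna4, an A-type channel gene of axons and terminals on chromosome 3 plus strand from 98297554 to 98300680, was the gene with the smallest p over all regions. In hippocampus it gave 30.4, 22.8, 27.1, 18.3 and 29.2 CPM in blast and 35.7, 35.6, 31, 35.5 and 30.4 CPM in sham. The groups met near 30.4 CPM without crossing, and blast 6 and blast 2 were lowest. The log2 difference was -0.40 (SE 0.136) with an adjusted p of 0.816 by edgeR, and -0.21 without blast 2 and blast 6. The summed excitatory neuron markers were 2779 CPM in blast 6 against 4569 to 5245 CPM in the other hippocampal libraries, and their part in the Kcna4 value was not tested further. In amygdala Kcna4 gave 19.6, 20, 18.1, 23.9 and 16.2 CPM in blast and 25.6, 31.7, 25.8 and 17.5 CPM in sham, which overlapped through sham 18, with a log2 difference of -0.36 (SE 0.150). Anterior cortex showed -0.031 and cerebellum, where the gene stood at 0.831 to 1.84 CPM, -0.33. Over all regions limma gave -0.32 (SE 0.084) with an adjusted p of 0.15, and without the 6 libraries that stood apart a log2 difference of -0.22 with an adjusted p of 0.462. The difference was negative in 4 of 4 regions and did not pass.

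The gene with the next smallest p over all regions, Kcnj10, went the other way. Kcnj10 gave 65.5, 52.1, 62.8, 73.3 and 61.9 CPM in blast and 59, 42.2, 52.1, 53.3 and 59.8 CPM in sham hippocampus, where the groups overlapped. Its log2 difference was 0.23 in hippocampus, 0.20 in amygdala, -0.03 in cerebellum and 0.20 in anterior cortex, and 0.16 (SE 0.061) over all regions with an adjusted p of 0.474 by limma. Without hippocampus blast 2 and blast 6 the hippocampal difference was 0.26. The highest amygdala value, 69.3 CPM, was that of blast 6, the library rich in oligodendrocyte transcripts. Other genes named by rank over all regions were Kcnj8, the ATP-sensitive pore subunit of mural cells, at 0.21, the G protein-opened Kcnj5 at 0.20, Kcnd1 at -0.19, Kcnip4 at -0.13 and Kcnab1 at -0.11.

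**Figure D4:**
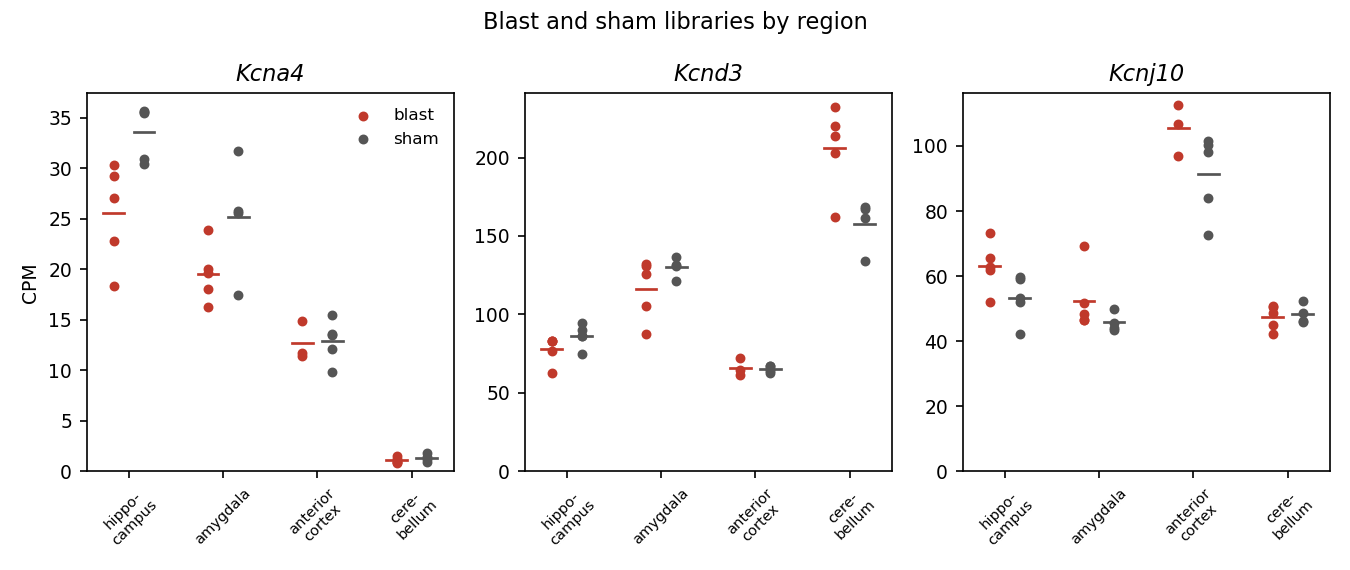
CPM of Kcna4, Kcnd3 and Kcnj10 in each library by region and treatment, with the mean as a line. Kcnd3 is higher in 4 of 5 blast than in all 4 sham libraries of cerebellum, and Kcna4 is lower in blast hippocampus.

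Amygdala and anterior cortex each had genes near the front by rank, at differences that missed the threshold. Kcnd1, a somatodendritic A-type channel gene, gave 14.8, 15.3, 13.6, 11.7 and 13.1 CPM in blast and 18.4, 17.4, 15.5 and 16.3 CPM in sham amygdala, a log2 difference of -0.30 (SE 0.102) without overlap. Kcnh6 gave 6.79, 5.94, 6.18, 5.77 and 6.13 CPM in blast and 7.33, 8.26, 7.35 and 7.91 CPM in sham amygdala, a log2 difference of -0.32 (SE 0.122), also without overlap. Without amygdala blast 6 and blast 9 the 2 differences were -0.22 and -0.29. The other amygdala genes named by rank were the ether-a-go-go-like Kcnh3 at 0.30, Kcns1 at 0.75, Kcnn4 at 0.89 and Kcnj14 at -0.24. In anterior cortex, where there were 3 blast libraries, Kcnk3 gave 18.6, 18.8 and 15.1 CPM in blast and 20.2, 19.7, 21.5, 20.1 and 19.1 CPM in sham. All blast values lay below all sham values, with a log2 difference of -0.21 (SE 0.102). Kcna3 had 0.39, Kcna7 1.23, Kcne3 0.94, Kcnt2 -0.22, Kcnv1 -0.30 and Kcnip4 -0.29 there. In hippocampus Kcns1 had 0.66, Kcnq1 0.62, Kcnj3 -0.27 and Kcnab1 -0.22. The Kcnq1 value became -0.067 without hippocampus blast 2 and blast 6.

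Kcne2 and Kcnj13, which encode an auxiliary subunit and an inward rectifier of the choroid plexus epithelium, followed the choroid plexus content of the library. Kcne2 gave 3.25, 26.8, 2.79, 80.7 and 3.1 CPM in blast and 3.79, 7.95, 2.61, 3.8 and 2.92 CPM in sham hippocampus, and 20.4 CPM in amygdala blast 9. These high values were in hippocampus blast 6, hippocampus blast 2 and amygdala blast 9, the forebrain libraries with the highest choroid plexus sums. Kcnj13 gave 55.8, 24.5 and 22 CPM in those libraries and at most 3.81 CPM in the other hippocampal ones. The log2 difference of Kcne2 between blast and sham hippocampus was 2.41 (SE 0.889), and it became -0.47 without those 2 libraries and -0.011 with the choroid plexus marker score as a covariate. In cerebellum Kcne2 ran from 4.82 to 25.4 CPM. Its call as higher in cerebellum than elsewhere in sham tissue rests on libraries whose choroid plexus sums ran from 31.4 to 3009 CPM. That call was kept with the choroid plexus marker score as a covariate, without cerebellum sham 13, and without the sham libraries that stood apart. How much of the regional difference of Kcne2 came from the plexus was not tested.

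**Figure D5:**
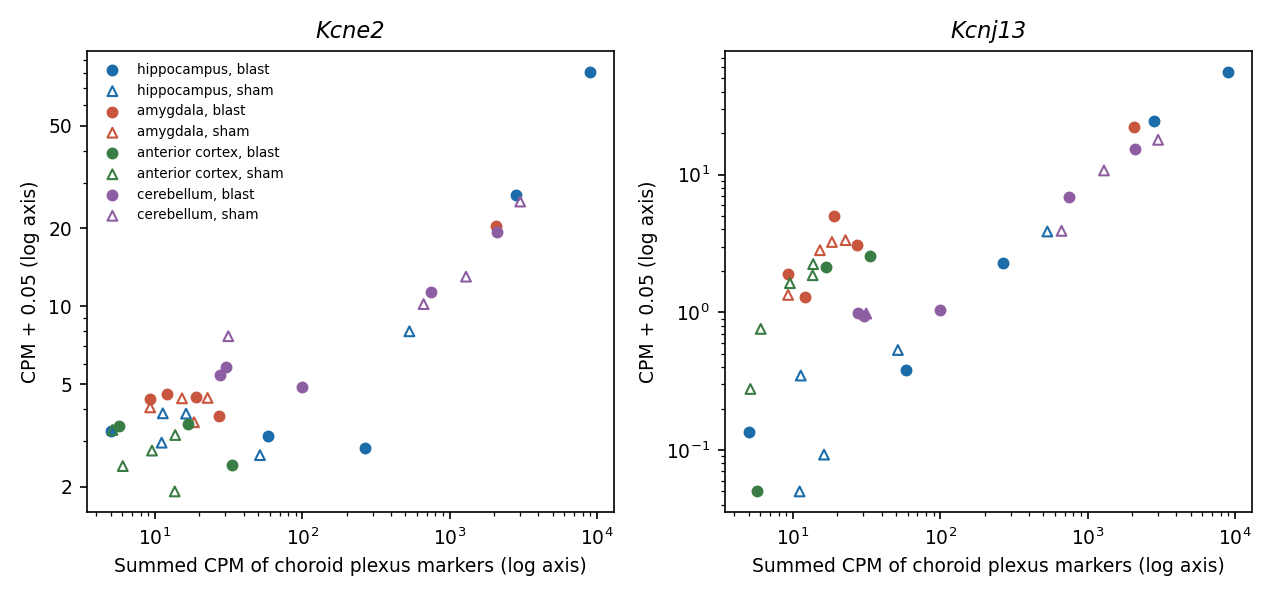
Kcne2 and Kcnj13 level of each library, in CPM plus 0.05, against the summed CPM of the choroid plexus markers, both on log axes. The highest Kcne2 values are those of hippocampus blast 6 and blast 2, at 80.7 and 26.8 CPM.

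Kcnip2, a partner of Kcnd channels, was carried by few libraries. The choroid-rich amygdala blast 9 was among them, and the choroid-rich hippocampus blast 2 and blast 6 were not. Hippocampus sham 16 had 43.6 CPM and all other hippocampal libraries 1.57 to 3.83 CPM, so that the log2 difference of -1.94 became 0.10 without it. In amygdala blast 5 and blast 9 had 12.9 and 12.3 CPM and the others 0.721 to 1.47 CPM, behind a log2 difference of 2.17. Which cells these transcripts came from was not tested.

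Genes that work with potassium channels but carry other names were counted in the same comparisons. These were 17 tested partner genes such as Dpp6 and Dlg4, 4 pacemaker channel genes and 11 genes of potassium pumps and cotransporters. In the blast comparisons 0 of these 32 genes (31 in anterior cortex) passed in any region by edgeR or over all regions by limma. An unadjusted p under 0.05 was found for 2 of 32 in hippocampus (background 5.24%) and 2 of 32 in amygdala (background 5.22%). The counts were 2 of 31 in anterior cortex (background 5.82%), 7 of 32 in cerebellum (background 6.82%) and 8 of 32 over all regions (background 8.62%). In cerebellum and over all regions the share was above the background, and what lies behind this was not tested. Between sham hippocampus and sham cerebellum, 5 partner genes were called higher in hippocampus and 9 lower (background 31.4% each way), with a median log2 difference of -0.21. Of the 11 pump and cotransporter genes, 4 were called higher and 6 lower in hippocampus, with a median of -0.38.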

How the data were processed

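Per the labels' protocols, total RNA was isolated by Qiazol and RNeasy and made into NEBNext Ultra libraries. The authors deposited 1 table per region with raw read counts per gene, FPKM values, and log2 fold changes and adjusted p-values of their own comparison, per the file headers. The submitters' processing notes name CASAVA. Not given in the sources used here are the aligner, counter, build, annotation, strand setting and the test the authors ran. The deposited counts were used for every test, the authors' FPKM as an alternative level per length, and the authors' log2 values only where named. A further 36 per-sample columns of the tables were not used. The potassium channel genes, lists and tests were chosen with earlier results of these data known.

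Counts were normalised by TMM after edgeR's filterByExpr and fitted over all genes of a table with edgeR 4.0.16 in R 4.3.3 (glmQLFit and glmQLFTest, two-sided), with Benjamini-Hochberg adjustment over all genes tested and a threshold of 0.05. Regions were compared in 1 fit of the 18 sham libraries over genes in all 4 tables. Blast over all regions used voom of limma 3.58.1 with the number in the title as a random effect, whose consensus correlation was 0.0281. CPM are counts divided by the library's total without TMM. Library totals were 15426786 to 23460322 counts, which sets the precision of low genes, and errors given are SD or SE over libraries. The scripts were tested on simulated data.

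Named in the text are, for blast, called genes and the 4 of smallest p in each direction; for sham, the first 6 higher and 4 lower genes of each region by smallest difference, and the 8 highest per length. Genes without overlap between groups, the levels of Kcnma1 and Kcnj13, and neighbours were added after their values were seen. A few genes that these rules name are counted but not reported here. Alternatives were DESeq2 1.42.0, RLE size factors, no count filter, a fit of the regions compared alone, the choroid plexus marker score as a covariate, the number as a block, leaving out each library, and, chosen after seeing the data, leaving out the libraries that stood apart. Between sham regions, the libraries left out as standing apart were hippocampus sham 12 and cerebellum sham 13.

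Blast and sham libraries share no number. Deviations of same-numbered sham libraries from their group means correlated at 0.103 to 0.209 for hippocampus and amygdala, where other numbers reached 0.0874. For amygdala and cerebellum they correlated at 0.144 to 0.178, where other numbers reached 0.116. Anterior cortex and cerebellum gave 0.09 to 0.22, where other numbers reached 0.0859. In these pairs of sham regions the numbers are read as pairing libraries. Hippocampus and cerebellum gave 0.123 to 0.288, which overlapped other numbers, at up to 0.163. Among blast libraries same-numbered correlations overlapped those of other numbers in every pair of regions, with means from -0.021 to 0.16.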

Additional observations from a re-analysis of the deposited data

Results flagged for a closer look

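In groups of 4 or 5 libraries, 131 group and gene combinations of the genes named above were searched for a library far from the others of its group, by the gap to its nearest neighbour relative to the group's range. Such a library was found in 11 (8.4%), where chance gives about 1 in 20 for independent groups. The genes were named from these same values and the groups share libraries, so this is no test of an excess. Of the 11, 3 were hippocampus sham 12. Kcne2 stood at 7.95 CPM there against 2.61 to 3.8 in the other sham libraries, in a library whose choroid plexus markers summed to 533 CPM. Kcnj6, the G protein-opened rectifier, stood at 51.93 CPM against 77.3 to 85.3, and the acid-sensitive channel gene Kcnk9 at 5.719 CPM against 10.8 to 11.7. Kcnip2 stood at 43.57 CPM in hippocampus sham 16 against 1.81 to 3.33, and Kcnj8 at 6.028 CPM in hippocampus sham 18 against 2.85 to 3.28. In amygdala, Kcnj10 stood at 69.33 CPM in blast 6 against 46.5 to 51.7, and Kcnj16 at 19.48 CPM in sham 13 against 28.3 to 29.2. In anterior cortex, Kcnk4 stood at 63.82 CPM in sham 16 against 51.3 to 53.6. In cerebellum, Kcnip4 stood at 181.0 CPM in sham 16 against 154 to 159, Kcnj12 at 139.7 CPM in sham 10 against 119 to 121, and Kcnrg at 3.919 CPM in sham 13 against 2.52 to 2.6. What set these libraries apart was not tested.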

How the results depend on the processing

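The count of potassium channel genes past the threshold for blast stayed 0 in hippocampus, amygdala, anterior cortex, over all regions and in the test between regions under every alternative run, and in cerebellum under all but DESeq2, which called 2, Kcnd3 at 0.38 among them. Leaving out each library in turn kept it at 0 in all 6 comparisons. No paired analysis was possible because blast and sham libraries share no number within a region. Between sham regions, the replicate block gave 39 calls for hippocampus and amygdala, 65 for hippocampus and anterior cortex, 68 for hippocampus and cerebellum, 40 for amygdala and anterior cortex, 65 for amygdala and cerebellum and 66 for anterior cortex and cerebellum. It ended the calls of Kcnh8 (1.44, adjusted p 0.0647) and Kcnk15 (-0.39, adjusted p 0.0571) between hippocampus and amygdala and of Kcnd3 between cerebellum and amygdala (0.19, adjusted p 0.052). It also ended those of Kcnq3 between hippocampus and anterior cortex (0.40, adjusted p 0.0593) and of Kcnj6 between amygdala and anterior cortex (0.33, adjusted p 0.0591). In these 2 pairs of regions the same-numbered correlations overlapped those of other numbers, as they did for hippocampus and cerebellum. Of the calls behind the marked genes it ended no other. In the test between regions the block also gave 0. Leaving out each library gave 37 to 44, 62 to 66, 66 to 70, 38 to 41, 62 to 66 and 62 to 66 calls in the order above. Genes marked as higher in amygdala ranged from 1 to 2, with 1 without amygdala sham 18. The choroid plexus covariate gave 57 calls between anterior cortex and cerebellum, the lowest count among the other alternatives of that comparison. Background shares under the alternatives are not given here, so these counts show only how far the family's calls moved. Blast differences that changed sign were Kcne2 in hippocampus, at -0.47 without blast 2 and blast 6 and -0.011 with the covariate, Kcnq1 in hippocampus at -0.067 without those libraries, and Kcnip2 in hippocampus, which ran from -2.21 to 0.10 with a library left out and was positive without sham 16. For the named blast differences, 366 values with a library left out kept direction and call and 1 changed sign; under the other alternatives 187 kept both, 3 changed sign and 2 passed. The named regional genes were scored here only against their nearest region. Of these values, 309 kept both with a library left out and 11 missed the threshold. Under the other alternatives 243 kept both and 1 missed it. This tally leaves out losses against the other regions, such as those of Kcnh8 given above. Kcnip2 was lost against cerebellum with the choroid plexus covariate, at 1.44 with an adjusted p of 0.305 by edgeR. DESeq2 gave Kcnip2 no adjusted p against any other region. With the authors' FPKM, 13 of the 32 leading levels per length moved by over 1 SD, and Kcnab2 still led in the 3 forebrain regions.
Depth limits the low genes: transcripts under 1 CPM rest on few counts per library, and anterior cortex had 3 blast libraries.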

Other observations

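The genes of G protein-opened inward rectifiers, which lower excitability when inhibitory receptors are active, did not share 1 regional order. Kcnj3, the common partner, gave 73.7, 57.1, 68.9, 76.3 and 71.5 CPM in sham hippocampus, 42.1, 46.2, 41 and 30.7 in amygdala, 73.6, 68.2, 78.7 and 74 in cerebellum and 24.4, 37.6, 28.8, 38.4 and 37.8 in anterior cortex. Kcnj9 gave 95.4, 92.7, 96.8, 91.8 and 103 CPM in hippocampus, 91.6, 96.1, 78.5 and 74.7 in amygdala, 92.4, 93.2, 83.1 and 82.6 in cerebellum and 75.2, 82.7, 80.3, 109 and 86.8 in anterior cortex. Between hippocampus and cerebellum the log2 difference was 0.048 (SE 0.121) for Kcnj3, 0.26 (SE 0.082) for Kcnj9 and 0.93 (SE 0.123) for Kcnj6, with adjusted p of 0.748, 0.00936 and 1.44e-06 by edgeR. Between hippocampus and anterior cortex the differences were 0.96 (SE 0.117), 0.047 (SE 0.077) and 1.65 (SE 0.119). These genes were chosen after their values were seen.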
